A study of Homo sapiens with 4 samples.

Results

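Chromatin accessibility was examined at the genes of 6 Notch ligands, JAG1, JAG2, DLL1, DLL3, DLL4 and DLK2, in human pancreatic progenitors (PPs) treated with DMSO or I-BET151. The peaks of the 4 deposited ATAC-seq lists were merged into regions wherever they overlapped by at least 1 bp. A region was assigned to a ligand when it overlapped the gene body in GENCODE release 44 or the 20 kb on either side of it. By this rule 41 of the 164301 merged regions belonged to the 6 loci, with 6 at JAG1, 5 at JAG2, 7 at DLL1, 12 at DLL3, 7 at DLL4 and 4 at DLK2. Regions are numbered from 5′ to 3′ along each gene.

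The PPs were derived from MEL1, an established human embryonic stem cell line. The study's methods name it MEL1 INS GFP/W, a line with GFP at an INS allele, which both groups then share. All PPs were grown in EF6, a basal medium with B27, the growth factors EGF (at 50 ng/ml) and bFGF (at 10 ng/ml), and the TGFβ inhibitor 616452 at 10 μM. The DMSO group received the solvent and the I-BET151 group received 1 μM of I-BET151, an inhibitor of the bromodomains that read acetylated lysine (EF6I medium), for 7 days. There were 2 libraries per group, each from 50000 cells, and the labels do not say whether they came from separate differentiations, so the spread between them may be technical. All libraries come from a single cell line, and the comparison asks where accessibility differs after I-BET151. Of 10 pancreatic progenitor markers, 7 had a peak within 1 kb of the transcription start site (TSS) in all 4 lists, among them NKX6-1, SOX9 and FOXA2. PDX1 had such a peak in the I-BET151 lists only, ONECUT1 in these and DMSO replicate 1, and PTF1A in none. Such a peak in all 4 lists was found for 0 of 5 endocrine markers. CHGA had it in 3 lists and NEUROD1 in I-BET151 replicate 1 only. It was found in all 4 lists for 3 of 4 mesenchymal markers (COL1A1, TWIST1 and VIM), 1 of 3 pluripotency markers (LIN28A) and 1 of 3 liver markers (APOA2). The share over all protein-coding genes was 53.6%.

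Notch ligands are membrane proteins on the signal-sending cell. Their binding to a NOTCH receptor on the neighbouring cell exposes the receptor to cleavage by ADAM10 and γ-secretase, and the released intracellular domain joins the DNA-binding protein RBPJ to switch on HES and HEY genes. JAG1 and JAG2 (Jagged family) and DLL1 and DLL4 (Delta-like family) activate the receptor from the outside. DLL3 is a divergent Delta-like protein that acts mainly within the same cell as an inhibitor, and DLK2 is a non-canonical ligand that lacks the DSL domain through which the others engage the receptor. In the developing pancreas, Notch signalling holds progenitors back from endocrine differentiation, with DLL1 made by cells entering that path and JAG1 prominent later in ductal cells.

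The calls, folds and percentiles below come from the peak lists and do not rest on sequence, and some windows with a motif match are not printed. The reference sequences (hg38) around 7 chosen summits are shown. They are the region at the JAG1 promoter, the intronic JAG1 region called in every library, the JAG1 region called with I-BET151 that had the highest fold, 2 regions of this kind at DLL1, the region upstream of DLL3, and the DLL4 promoter. Each line gives 201 bases centred on the summit of the strongest peak. Capitals mark exact matches to any of 8 short motifs searched on both strands, and lines without capitals hold none. In JAG1 regions 3 and 6 and in DLL1 region 6 they mark GTGGGAA, the core that RBPJ binds, or its reverse complement TTCCCAC. The other capitals in JAG1 region 6 are TEAD (GGAATG) and SOX (AACAAT) matches, and those in DLL1 region 4 are a SOX match.
JAG1 region 2, chr20:10674104-10674304, + strand: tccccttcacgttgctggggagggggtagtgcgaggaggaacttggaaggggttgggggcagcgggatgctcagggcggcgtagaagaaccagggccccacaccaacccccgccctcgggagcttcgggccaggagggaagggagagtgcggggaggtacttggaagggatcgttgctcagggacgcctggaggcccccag
JAG1 region 3, chr20:10654676-10654876, + strand: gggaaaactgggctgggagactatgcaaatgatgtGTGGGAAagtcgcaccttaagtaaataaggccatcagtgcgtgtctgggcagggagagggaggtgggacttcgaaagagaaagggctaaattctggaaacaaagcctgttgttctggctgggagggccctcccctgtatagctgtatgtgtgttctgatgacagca
JAG1 region 6, chr20:10619600-10619800, + strand: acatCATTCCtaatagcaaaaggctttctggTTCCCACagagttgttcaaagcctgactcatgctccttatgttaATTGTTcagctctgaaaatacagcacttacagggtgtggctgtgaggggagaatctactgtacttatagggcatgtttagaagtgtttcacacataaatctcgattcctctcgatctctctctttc
DLL1 region 4, chr6:170286702-170286902, + strand: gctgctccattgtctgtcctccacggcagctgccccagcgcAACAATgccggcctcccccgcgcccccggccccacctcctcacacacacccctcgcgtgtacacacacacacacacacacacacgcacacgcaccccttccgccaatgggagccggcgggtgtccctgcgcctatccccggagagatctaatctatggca
DLL1 region 6, chr6:170268838-170269038, + strand: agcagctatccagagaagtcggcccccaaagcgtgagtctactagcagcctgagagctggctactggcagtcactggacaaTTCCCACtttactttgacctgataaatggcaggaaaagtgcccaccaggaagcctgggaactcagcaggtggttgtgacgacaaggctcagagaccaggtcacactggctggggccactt
DLL3 region 5, chr19:39497996-39498196, + strand: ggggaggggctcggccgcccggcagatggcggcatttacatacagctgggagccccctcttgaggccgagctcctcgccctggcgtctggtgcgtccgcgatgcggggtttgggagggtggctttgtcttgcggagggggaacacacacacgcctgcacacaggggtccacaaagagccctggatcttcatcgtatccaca
DLL4 region 4, chr15:40929100-40929300, + strand: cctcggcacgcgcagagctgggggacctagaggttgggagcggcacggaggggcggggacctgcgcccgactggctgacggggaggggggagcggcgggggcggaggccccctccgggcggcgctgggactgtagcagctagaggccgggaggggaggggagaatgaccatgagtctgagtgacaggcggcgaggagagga

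The ligand loci were GC-rich. The median GC content of the 41 windows was 60.2%, compared with 47.8% over all merged regions. A motif was found in 9 of the 41 windows (22.0%), compared with 47.7% of all windows of the same length. RBPJ (GTGGGAA) was matched in 3 windows (7.32%, all regions 4.87%), TEAD (GGAATG) in 4 (9.76%, all regions 14.95%), SOX (AACAAT) in 2 (4.88%, all regions 10.3%), AGATAA, the core of GATA factors, in 2 (4.88%, all regions 14.2%) and FOXA (TGTTTAC) in 1 (2.44%, all regions 4.57%). CTCF (its consensus, all regions 1.86%), HNF6 (ATTGAT, all regions 9.22%) and the homeodomain core TAATTA (all regions 4.72%) were matched in 0 of 41. A match is a description of the letters only. Some matches lay in regions that each I-BET151 library called and neither DMSO library did. This held for 2 of the 3 windows with RBPJ, 2 of 2 with SOX and 3 of 4 with TEAD. It also held for 1 of 2 with AGATAA and 0 of 1 with FOXA. Over the genome, RBPJ was matched in 5.02% of regions with these calls, near the 4.87% of all regions. For the others the shares were 13.1% against 10.3% (SOX) and 15.05% against 14.95% (TEAD). They were 17.4% against 14.2% for AGATAA and 5.52% against 4.57% for FOXA. The counts at the ligand loci are small and were not tested.

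The lists differ in depth and in enrichment. The background of the DMSO lists corresponded to 38.7 and 36.6 M reads, and that of the I-BET151 lists to 12.5 and 16.0 M. The lists held 82568 and 38295 peaks for DMSO and 84995 and 111324 for I-BET151. Fold enrichment, the ratio (pileup + 1)/(local background + 1) at a summit, had a median of 3.88 and 4.08 in the DMSO lists and of 5.56 and 6.03 in the I-BET151 lists. Therefore a higher fold with I-BET151 was the rule over the genome. For regions called in all 4 lists, or in each I-BET151 library and no DMSO library, the percentile within the list is also given.

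At the ligand loci, 18 of the 41 regions were called in DMSO replicate 1 and 9 in DMSO replicate 2, compared with 25 in I-BET151 replicate 1 and 28 in I-BET151 replicate 2. In all 4 lists 7 regions were called. A further 10 regions had a peak in each I-BET151 list but none with DMSO. These are termed gained, and they made up 24.4% of the members, compared with 17.0% of all merged regions. The reverse pattern, termed lost, was seen in 1 region (2.44%, compared with 2.37% of all merged regions). The remaining 23 had other combinations of calls. The share lost was near that of all regions, and the share gained was above it, a difference that was not tested because regions of a locus are not replicates. More accessible DNA per cell and more cells with that DNA accessible cannot be told apart in these bulk libraries.

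These counts depend on how many peaks each list holds. When the 38295 peaks with the highest −log10 p were taken from every list, 16 member regions were left, of which 1 was gained (6.25%, all regions 9.19%) and 2 were lost (all regions 5.85%). That gained region was DLL4 region 6, which is not among the 10, and the lost ones were DLL3 region 7 and JAG2 region 5. With peaks of −log10 p of at least 10 only, 5 regions were gained (31.2%, all regions 23.3%), of which DLL1 region 4 alone is among the 10.

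**Figure D1:**
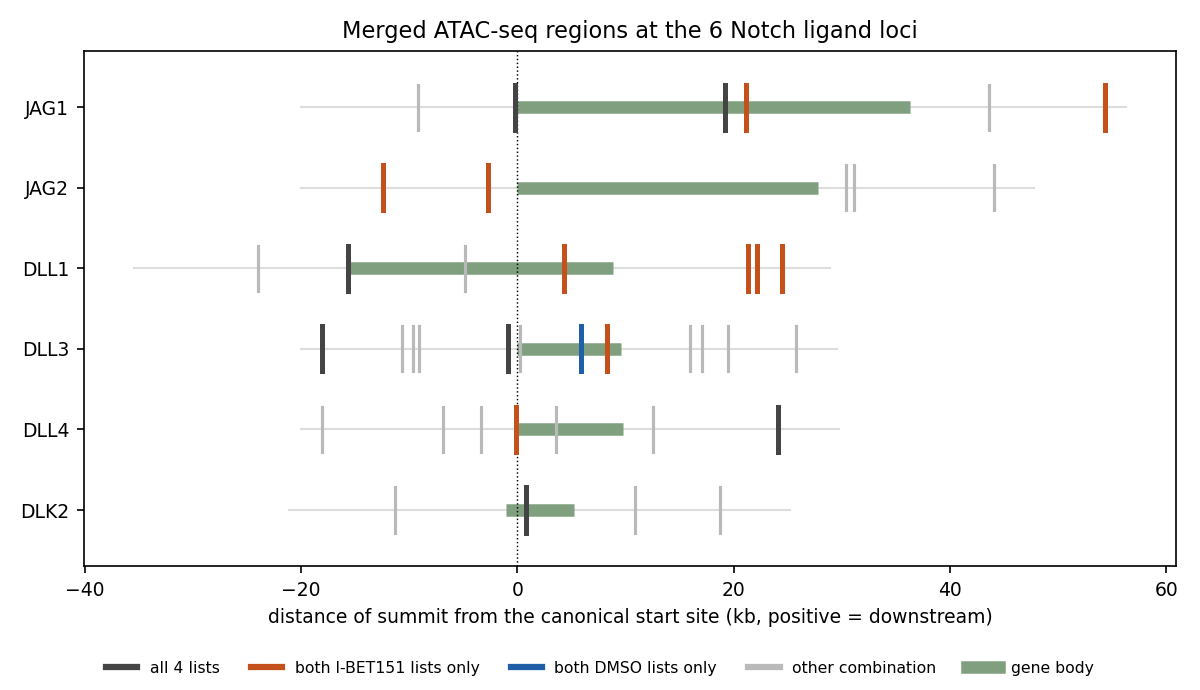
Position of the 41 regions (vertical bars, at the summit) relative to the canonical TSS of each ligand gene, in kb with positive values downstream. The green bar is the gene body and the grey line the 20 kb on either side. Colour gives the lists that called the region: 7 in all 4 lists, 10 in both I-BET151 lists only, 1 in both DMSO lists only and 23 in other combinations. Gained regions lie at JAG1, JAG2, DLL1, DLL3 and DLL4, with 4 of the 10 at DLL1.

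JAG1 (chr20:10637684-10673999, minus strand) carried an accessible promoter in every library. Region 2 (chr20:10673934-10675153), with its summit 205 bp upstream of the TSS, had a fold of 5.21 and 4.31 in the DMSO libraries and of 6.73 and 8.78 in the I-BET151 libraries. The I-BET151 values were both above the DMSO values. Within the lists, however, these were percentiles 82.2 and 56.3 for DMSO and 66.4 and 77.0 for I-BET151, which overlap. The rank shift is I-BET151 minus DMSO in limma on normal scores of ranks, taken among the regions called in all 4 lists only. It can therefore differ in sign from the change in percentile over the whole list. For region 2 it was −0.36 ± 0.38 (SE, n = 2 per group, limma, Benjamini-Hochberg adjusted p = 0.59).

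Inside JAG1, region 3 (chr20:10654653-10655178) in intron 5 was weak with DMSO. Its fold was 3.19 and 2.91 in the DMSO libraries and 5.93 and 5.61 in the I-BET151 libraries. Its percentile was 18.3 and 8.36 with DMSO and 56.8 and 43.8 with I-BET151, but the rank shift of 0.57 ± 0.40 (SE) did not pass the test in limma (adjusted p = 0.39). This is the window with an RBPJ match shown above. Region 4 (chr20:10652696-10653045), about 2 kb further into the same intron, was gained with folds of 4.39 and 3.86 in the I-BET151 libraries. These lay at percentiles 23.25 and 11.9 of their lists.

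The strongest gained region of the 6 loci by mean fold was JAG1 region 6 (chr20:10619505-10619924), 54.3 kb downstream of the JAG1 TSS and in intron 6 of SLX4IP. Its fold was 6.24 and 10.21 in the I-BET151 libraries, at percentiles 60.9 and 85.2. These rest on pileups of 11 and 27 reads. The remaining regions 1 and 5 were each called in a single I-BET151 list, with folds of 5.56 and 3.47.

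JAG2 (chr14:105140982-105168824, minus strand) had no peak within 1 kb of its TSS in any list. The nearest was region 2 (chr14:105170977-105171748), 2.75 kb upstream and gained, with low folds of 3.63 and 3.29 in the I-BET151 libraries. These lay at percentiles 4.42 and 4.76 of their lists. The other gained region, region 1 (chr14:105181021-105181540), had folds of 4.51 and 7.32, and its summit lay 150 bp inside NUDT14, so it marks the start of that neighbour. Its percentiles were 25.8 and 64.7 in the I-BET151 libraries. JAG2 region 5, 44.1 kb downstream of the TSS, was called in 3 lists, with folds of 3.91 and 3.07 for DMSO and 4.50 in I-BET151 replicate 2. Regions 3 and 4 were called in DMSO replicate 1 only, with folds of 2.71 and 2.76. Calls at JAG2 were thus made with either treatment.

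DLL1 (chr6:170282206-170306565, minus strand) also had no peak within 1 kb of its canonical TSS in any list. It had the most gained regions of the 6 loci, 4 of 7. Region 4 (chr6:170286473-170287072), in intron 4 and 4.28 kb downstream of the TSS, had folds of 6.02 and 6.21 in the I-BET151 libraries, at percentiles 58.0 and 51.6, with pileups of 19 and 30 reads. Regions 5, 6 and 7 (chr6:170266114-170269896 in all) lay between 21.3 and 24.4 kb downstream of the TSS. Region 5 had folds of 5.41 and 5.87, region 6 of 3.82 and 2.90, and region 7 of 4.40 and 3.39 in the I-BET151 libraries. The percentiles were 48.2 and 46.7 for region 5, 9.30 and 1.28 for region 6, and 23.4 and 5.55 for region 7. No peak was called in either DMSO library at any of these 4 positions. Region 6, which holds an RBPJ match, was the weakest of the 4, with 11 reads at its summit in each I-BET151 library. Regions 1 and 3 were each called in a single I-BET151 list, with folds of 4.68 and 3.22.

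The strongest region at the DLL1 locus lay where DLL1 and its neighbour meet. DLL1 region 2 (chr6:170305847-170307134) had its summit 12 bp from the TSS of FAM120B, a gene of the opposite strand, and 15.7 kb upstream of the canonical DLL1 TSS. It also covers the 5′ end of the annotated DLL1 gene body, where a longer, non-canonical transcript begins, so it cannot be assigned to either gene. Its fold was 6.79 and 6.33 in the DMSO libraries and 10.71 and 11.39 in the I-BET151 libraries. By percentile it stood at 93.0 and 86.2 with DMSO and at 91.0 and 90.0 with I-BET151, a rank shift of −0.31 ± 0.38 (SE, limma adjusted p = 0.65).

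**Figure D2:**
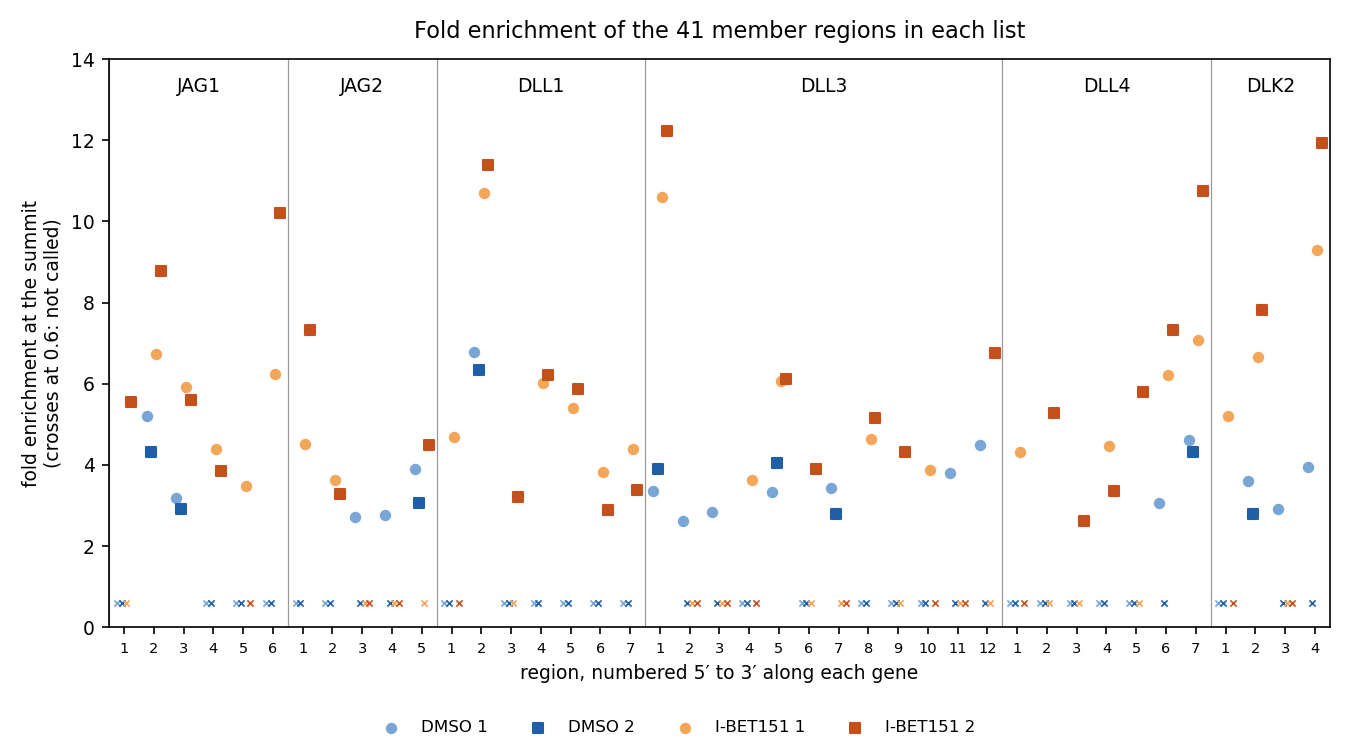
Fold enrichment at the summit (linear axis) of each of the 41 regions in the 4 lists, with regions numbered 5′ to 3′ within each locus. Circles are replicate 1 and squares replicate 2, DMSO in blue and I-BET151 in orange, and crosses at the bottom mark lists without a call. In the 7 regions with all 4 points, both I-BET151 points lie above both DMSO points.

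DLL3 (chr19:39498895-39508481, plus strand) lay in the densest stretch, with 12 regions, of which only 3 had the DLL3 TSS as their nearest. Region 5 (chr19:39497824-39498781), with its summit 851 bp upstream of the TSS, had a peak in every library, with folds of 3.33 and 4.06 for DMSO and 6.07 and 6.12 for I-BET151. Its percentiles were 24.2 and 49.3 for DMSO and 58.5 and 50.8 for I-BET151, and the rank shift was −0.08 ± 0.43 (SE, limma adjusted p = 0.93). When the pileup per M reads was centred on the median of shared regions instead, the same region was lower with I-BET151 relative to that median. The log2 change was −0.98 (limma adjusted p = 0.0451). Before centring, its pileup per M reads was higher with I-BET151, at 0.963 and 1.19 from 12 and 19 reads, against 0.491 and 0.628 with DMSO.

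Within DLL3 the calls went in both directions. Region 7, in intron 5, was the lost region, with folds of 3.44 and 2.79 and pileups of 25 and 20 reads in the DMSO libraries. Region 8 (chr19:39507023-39507512), in coding exon 7 and about 2.5 kb away, was gained, with folds of 4.63 and 5.16 in the I-BET151 libraries and pileups of 9 and 14 reads. It stood at percentiles 28.15 and 34.65 of these lists. Region 6, 197 bp inside the gene, was called in I-BET151 replicate 2 only, with a fold of 3.89. All of these peaks rest on at most 25 reads. Of the other regions at this locus, 2, 3 and 11 were called in DMSO replicate 1 only (folds of 2.62 to 3.80), 4, 9 and 10 in a single I-BET151 list (folds of 3.64 to 4.31), and 12 in a DMSO list (replicate 1, fold of 4.50) and an I-BET151 list (replicate 2, fold of 6.75). Their nearest TSS was that of TIMM50, SELENOV or EID2B.

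The member with the largest rank shift lay at the TSS of a neighbour. DLL3 region 1 (chr19:39480402-39481345) covers the TSS of TIMM50, which encodes a subunit of the mitochondrial import machinery, with its summit in coding exon 1 and 18.1 kb upstream of DLL3. Its fold was 3.37 and 3.89 in the DMSO libraries and 10.60 and 12.22 in the I-BET151 libraries. Its percentile rose from 27.3 and 45.15 to 90.65 and 92.6, and the rank shift of 1.60 ± 0.41 (SE) passed the test in limma (adjusted p = 0.0364). It was the only shared member to do so, 1 of 7, and 0 of 7 fell, while over all 25627 shared regions 3.41% rose and 1.96% fell. The call was lost without DMSO replicate 1 (rank shift 1.11, limma adjusted p = 0.378), without DMSO replicate 2 (1.96, adjusted p = 0.0619) and with ranks by −log10 p (1.37, adjusted p = 0.148). It was also lost with centred scaled pileup (log2 change 0.54, adjusted p = 0.152). With −log10 p of at least 10, or with equal numbers of peaks per list, the region was no longer called in every list.

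DLL4 (chr15:40929340-40939073, plus strand) was the only ligand whose own TSS region was gained. Region 4 (chr15:40928972-40929497), with its summit 140 bp upstream of the TSS, had folds of 4.46 and 3.35 in the I-BET151 libraries, at percentiles 24.7 and 5.18, and was not called with DMSO. A gained TSS region was found for 7.08% of the 20007 protein-coding genes, and a TSS region in all 4 lists, as at JAG1, DLL3 and DLK2, for 53.6%. The pileups at DLL4 region 4 were 19 and 28 reads, or 1.52 per M reads (95% Poisson interval 0.918 to 2.38) and 1.75 (1.16 to 2.53) per M reads. Such intervals cover counting error only. The 1st percentile of the peaks in the DMSO lists lay lower, at 0.310 and 0.328 per M reads. Over the shared regions, the pileup per M reads was higher with I-BET151 by a median log2 change of 1.58 for replicates 1 and 2.25 for replicates 2.

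Around DLL4, regions 1, 2, 3 and 5 were each called in a single I-BET151 list, with folds between 2.63 and 5.79. Region 5 lay in intron 6 of DLL4 with 43 reads at its summit. Region 6 (chr15:40941567-40942396), 12.5 kb downstream of the TSS, was called in 3 lists, with a fold of 3.07 in DMSO replicate 1 and of 6.22 and 7.33 in the I-BET151 libraries. The strongest, region 7 (chr15:40952868-40953749), lay 74 bp from the TSS of CHAC1 and had folds of 4.62 and 4.33 for DMSO and 7.09 and 10.74 for I-BET151. Its percentiles overlapped between the groups (71.8 and 58.0 for DMSO, 70.3 and 87.6 for I-BET151), and the rank shift was 0.17 ± 0.39 (SE, limma adjusted p = 0.82).

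DLK2 (chr6:43450352-43456632, minus strand), the non-canonical ligand, had a TSS region in all lists. Region 2 (chr6:43454503-43455491), with its summit in coding exon 2 and 792 bp downstream of the TSS, had folds of 3.60 and 2.78 for DMSO and 6.65 and 7.83 for I-BET151. Its percentile was 36.5 and 4.92 with DMSO and 65.6 and 69.2 with I-BET151. The rank shift of 1.01 ± 0.41 (SE) did not pass the test in limma (adjusted p = 0.14). With centred scaled pileup the difference had the other sign, −0.25 on the log2 scale (limma adjusted p = 0.502). The strongest region at this locus by mean fold over the lists that called it was region 4 (chr6:43436492-43437260) in intron 6 of ABCC10, with 3.95 in DMSO replicate 1, no call in DMSO replicate 2, and 9.30 and 11.93 in the I-BET151 libraries. Region 1 was called in I-BET151 replicate 1 only, with a fold of 5.20, and region 3 in DMSO replicate 1 only, with a fold of 2.91. No region at DLK2 was gained or lost.

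**Figure D3:**
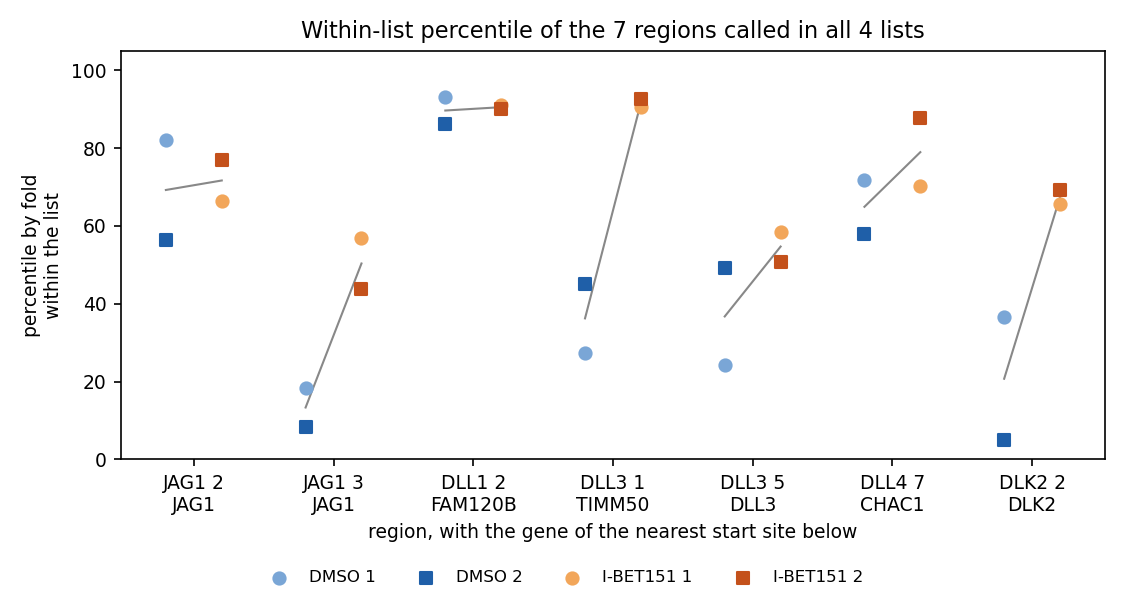
Percentile by fold, within each list, of the 7 shared regions, with the gene of the nearest TSS below each name. Circles are replicate 1 and squares replicate 2, DMSO in blue and I-BET151 in orange, and lines join the group means. The TIMM50 region at the DLL3 locus rises from percentiles 27.3 and 45.15 to 90.65 and 92.6. The JAG1 promoter region and the regions nearest to FAM120B and CHAC1 overlap between the groups.

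In all 7 shared members each I-BET151 library had a higher fold than either DMSO library, and the same held for 90.1% of all shared regions. With the pileup per M reads centred on the median of shared regions, 2 of the 7 were higher in both I-BET151 libraries and 3 lower in both. For this measure the share over all shared regions is not given, so these counts cannot be set beside it. The median rank shift of the 7 was 0.17, compared with −0.03 over all shared regions. Of the 41 regions, 24 had the ligand TSS as their nearest canonical protein-coding TSS and 17 had that of another gene. The former included 8 gained, 1 lost and 4 shared regions, and the latter 2 gained and 3 shared regions, including the TIMM50 region.

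**Figure D4:**
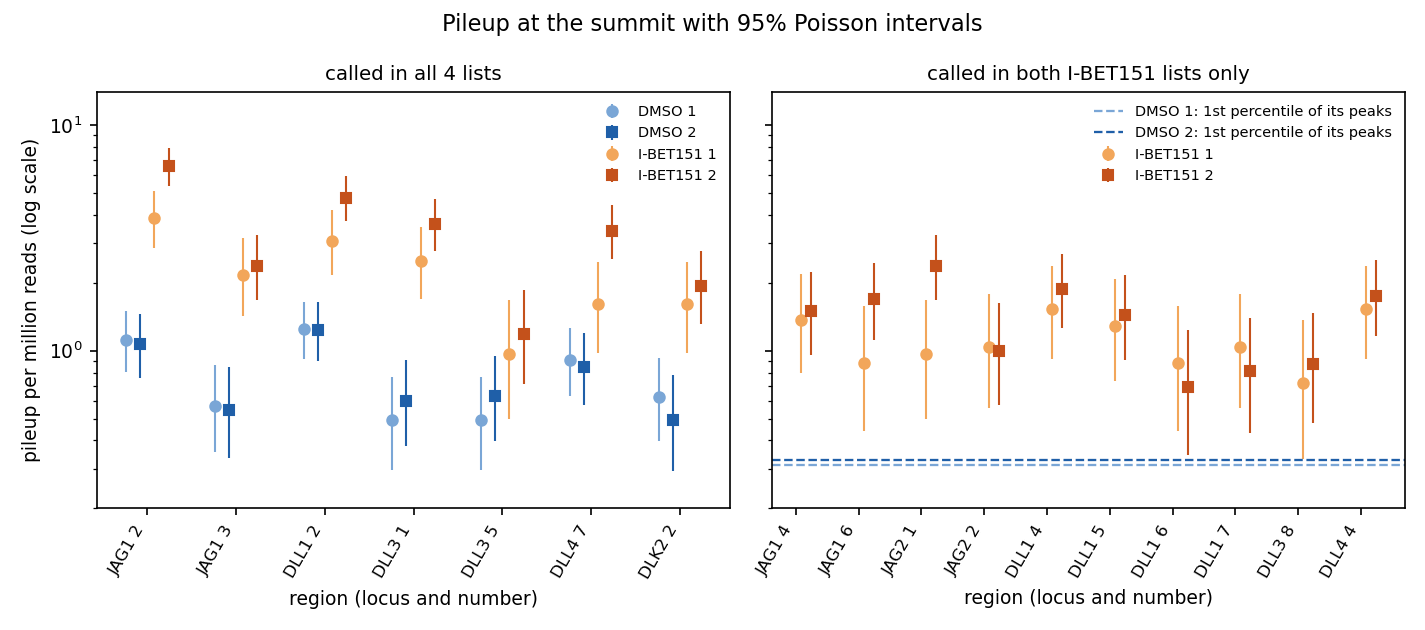
Pileup at the summit per M reads (log axis) with 95% Poisson intervals, for the 7 regions called in all 4 lists (left) and the 10 gained regions (right). Circles are replicate 1 and squares replicate 2, DMSO in blue and I-BET151 in orange, and dashed lines mark the 1st percentile of the peaks of each DMSO list (0.310 and 0.328). Values of the gained regions lie between 0.688 and 2.38 per M reads, from 9 to 38 reads.

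For each gene, a locus score summarised the regions as the mean of their within-list percentiles, with 0 for a region that a list did not call. JAG1 scored 16.7 and 10.8 with DMSO and 35.0 and 43.4 with I-BET151, a difference of 25.4. DLL1 scored 13.3 and 12.3 with DMSO and 37.3 and 28.5 with I-BET151, a difference of 20.1, and DLL4 12.1 and 8.28 with DMSO and 25.3 and 34.5 with I-BET151, a difference of 19.7. DLK2 scored 24.35 and 1.23 with DMSO and 48.65 and 40.3 with I-BET151, a difference of 31.7. At these 4 loci the groups did not overlap. JAG2, with 11.9 and 2.70 for DMSO and 6.04 and 18.8 for I-BET151, and DLL3, with 17.1 and 8.29 for DMSO and 16.1 and 22.4 for I-BET151, overlapped between the groups.

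The score was higher in both I-BET151 libraries at 51.3% of the 18865 protein-coding loci with a region, and the median difference over those loci was 10.7, against 19.9 over the 6 ligand loci. Averaged over the 6 loci, the DMSO libraries scored 11.6 ± 6.12 (SD, n = 2) and the I-BET151 libraries 29.7 ± 2.29 (SD, n = 2), a difference of 18.1 (exact permutation test, two-sided, p = 0.333, the smallest that 2 against 2 libraries can give). With equal numbers of peaks per list this difference was 7.21, at JAG1 it was 0.209, at DLL1 −2.28, at DLL4 5.12 and at DLK2 40.8. At DLK2 the difference was 57.6 without DMSO replicate 1 and 20.1 without DMSO replicate 2. At DLL3, where the groups overlap, it was 14.6 and 2.14 without these libraries and 11.6 without I-BET151 replicate 1. At JAG2, where they also overlap, it lay between −1.24 and 16.2 when a library was left out.

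With I-BET151 the order of the mean scores was DLK2 (44.5 ± 5.93, SD, n = 2), JAG1 (39.2 ± 5.96), DLL1 (32.9 ± 6.24), DLL4 (29.9 ± 6.50), DLL3 (19.25 ± 4.43) and JAG2 (12.4 ± 9.02). The libraries of neighbouring genes in this order overlapped, except for DLL4 and DLL3, which did not. With DMSO the order was JAG1 (13.8 ± 4.22, SD, n = 2), DLL1 (12.8 ± 0.685), DLK2 (12.8 ± 16.4), DLL3 (12.7 ± 6.24), DLL4 (10.2 ± 2.73) and JAG2 (7.28 ± 6.48), and all neighbours overlapped. These scores include regions nearest to other genes. The ligand TSS was the nearest for 2 of 4 regions at DLK2 and 3 of 12 at DLL3. With only such regions, the score difference was 25.4 at JAG1, 24.8 at DLL1, 21.4 at DLK2, 14.3 at DLL4, 2.17 at DLL3 and −4.89 at JAG2.

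**Figure D5:**
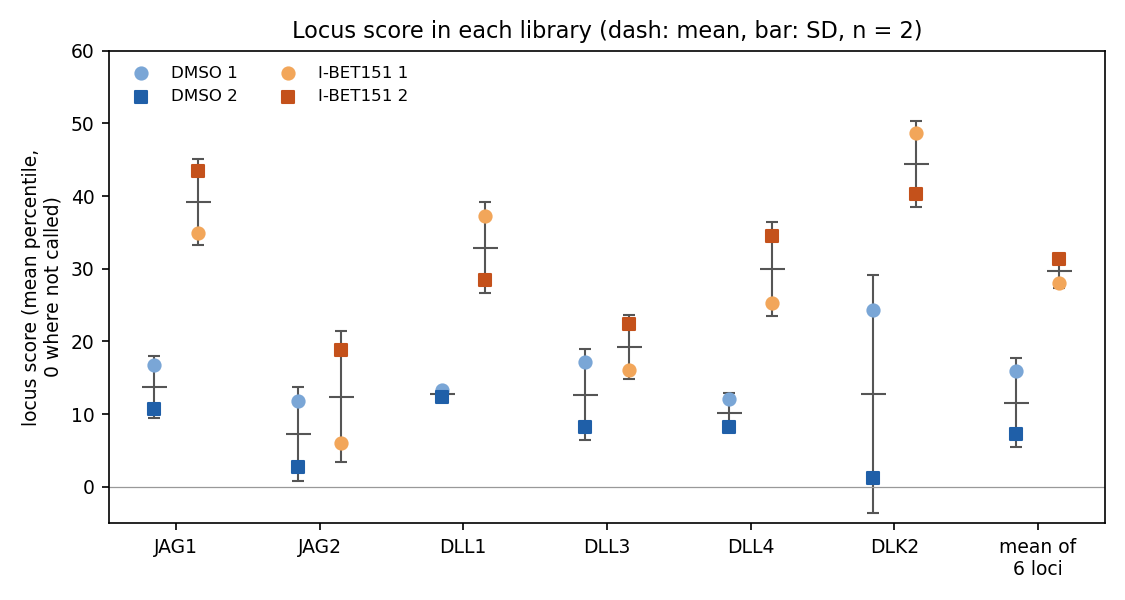
Locus score (mean percentile of the regions of a gene within a list, 0 where not called) of each ligand gene and of their mean. Circles are replicate 1 and squares replicate 2, DMSO in blue and I-BET151 in orange, with the mean as a dash and the SD as a bar (n = 2). The groups are apart at JAG1, DLL1, DLL4 and DLK2 and overlap at JAG2 and DLL3.

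The other genes of the pathway were described by the same measures. At the 4 receptor genes, 9 of 34 regions were gained (26.5%) and 2 lost, with NOTCH1 and NOTCH3 having a gained TSS region and NOTCH2 and NOTCH4 none in any list. At the 9 HES and HEY genes, the transcriptional targets, 8 of 59 regions were gained (13.6%) and 6 lost (10.2%). Of all merged regions, 17.0% were gained and 2.37% lost. The median score difference was 15.0 for the receptors and 7.13 for the HES and HEY genes, beside 10.7 over all protein-coding loci with a region. Over all 47 other genes of the pathway list, 25 had a TSS region in all 4 lists, 8 had a gained one (all protein-coding genes 7.08%), 0 a lost one and 8 none. Of their 493 regions, 90 were gained (18.3%) and 13 lost (2.64%), and of the 115 called in all 4 lists, 3 rose and 3 fell in rank in limma (adjusted p under 0.05), beside 3.41% and 1.96% of all shared regions. The score was higher in both I-BET151 libraries for 30 of the 47 genes, lower in both for 0, and overlapped for 17. Over all protein-coding loci with a region, it was higher in both at 51.3% and lower in both at 2.96%. All 8 genes of receptor cleavage (ADAM10, ADAM17 and the subunits of γ-secretase) had a TSS region in all 4 lists, as did 3 of the 6 ligands, 0 of the 4 receptors and 53.6% of all protein-coding genes. These shares were not tested against each other.

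The gene of this list whose scores were closest to those of each ligand over the 4 libraries was found by Euclidean distance in percentile points. It was NOTCH1 for JAG1 (8.38) and for DLL1 (7.73), NRARP for JAG2 (11.6), HES7 for DLL3 (2.51), NEURL1B for DLL4 (2.66) and NCSTN for DLK2 (18.7). NOTCH1 scored 13.45 and 12.6 with DMSO and 37.2 and 36.2 with I-BET151. The median distance to the 47 genes lay between 21.0 for DLL4 and 34.7 for JAG2, and over 4 libraries many genes share such a pattern.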

How the data were processed

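ATAC-seq peak lists of 4 libraries (2 DMSO, 2 I-BET151) were used. The authors aligned reads to hg38 with Bowtie2 (version 2.2.5), discarded PCR duplicates as well as reads of the mitochondrial genome, and ran MACS2 (version 2.1.2) on each library separately. The deposited lists hold, for each peak, a score for display that was not used, the fold enrichment (the summit's pileup over its local background, as a ratio), and the p-value and q-value as −log10. The deposited peaks reach down to a −log10 q of about 1.3, a looser threshold than the p-value given in the study's methods, and the peak widths differ between the replicates (shortest peak 200 bp in both replicate 1 lists, 233 and 256 bp in the replicate 2 lists).

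Peaks of the autosomes, X and Y were merged (1 bp). No region reached beyond the hg38 chromosome ends (0 bp). Pileups in whole reads were solved from fold and p-value (within 0.01 of −log10 p, 99.9 to 100.0% of peaks), and depth was taken from the genome-wide background for a genome size of 2.7 Gb. It is an estimate that scales with that size and takes the shortest peak of each list as the length to which reads were extended. The study's methods give 200 bp for that length. With 200 bp, the depths of the replicate 2 lists would be higher and their values per M reads lower. Ranks of fold within each list were turned into normal scores and tested over the 25627 regions called in all lists with limma 3.58.1 in R 4.3.3 (Benjamini-Hochberg adjustment, threshold 0.05). The scripts were tested on simulated data. Locus scores were computed in Python 3.11.15 (pandas 2.3.3, scipy 1.17.1).

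The members, gene lists and motifs were chosen with earlier results of these data known. The rule for regions named in full took those within 1 kb of the canonical TSS, the one with the highest mean fold of each locus, limma calls, and up to 3 gained and 3 lost regions per locus by the lower of 2 folds. Some regions outside this rule are also described, among them JAG1 region 3 and DLL1 region 6. The printed windows were chosen apart from the rule and include every window with an RBPJ match. The remaining regions are described by their folds or the range of these. Same-numbered libraries were not treated as pairs, since no label says that a number marks a shared culture and their deviations had a correlation of −0.143 over the shared regions. Windows that overlap an untranslated region (at TIMM50, FAM120B, NUDT14, CHAC1 and DLK2 among others) are not printed, and the sequence of DLL3 region 7 is not reported here. The other experiments of the study were not used here.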

Additional observations from a re-analysis of the deposited data

How the results depend on the processing

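The mean score difference of the 6 ligand loci was higher with I-BET151 under each of the 13 alternatives, from 7.21 with equal numbers of peaks per list to 27.8 with −log10 p of at least 10, and 13.0 to 26.5 when each library was left out in turn. The difference kept its direction at JAG1, DLL3, DLL4 and DLK2 under each of these. It reversed at JAG2 with equal numbers of peaks (−3.09), without I-BET151 replicate 2 (−1.24) and with only regions nearest to the ligand TSS (−4.89), and at DLL1 with equal numbers of peaks (−2.28).

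Gained members were 5 with −log10 p of at least 10, 1 with equal numbers, 5 with a 5 kb window and 16 with a 50 kb window. No share is given for the 2 windows. When a library was left out they were 10 to 18. Without I-BET151 replicate 2 they were 18 of 36 (50.0%, all regions 35.8%), and without I-BET151 replicate 1 they were 17 of 35 (48.6%, all regions 43.7%). Lost members were 0, 2 and 3 with the strict threshold, equal numbers and the 50 kb window, and 1 to 8 when a library was left out (8 of 42 without DMSO replicate 2, all regions 20.9%). Shared members with a higher fold were 3 of 3 with the strict threshold, 4 of 4 with equal numbers, 4 of 4 for regions nearest to the ligand TSS, and 7 to 9, again all shared members, when a library was left out. With centred scaled pileup, 2 of 7 were higher and 3 lower, and the share over all shared regions is not given.

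In limma, 0 members rose with the strict threshold, equal numbers, ranks by −log10 p, centred scaled pileup or only the regions nearest to the ligand TSS, and 0 to 1 when a library was left out, while 1 (DLL3 region 5) fell with centred scaled pileup. Over all shared regions 8 rose and 27 fell with ranks by −log10 p, 191 and 1245 with centred scaled pileup (875 and 503 in the report), and 117 to 1777 rose and 119 to 1707 fell when a library was left out. The cause of these shifts was not tested.

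With the replicate number as a block (replicate block), 985 regions rose and 652 fell, and DLL3 region 1 kept its call (limma adjusted p = 0.0185). The mean score difference of 18.1 cannot change with a block. A crossed replicate block, chosen after seeing the data, gave 1985 and 1567. The lists hold called peaks only, so a region without a call has an unknown level below the caller's threshold, and with 2 libraries per group an exact test cannot go below p = 0.333.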

Other observations

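Other Notch pathway genes with a gained TSS region were HES6 among the targets, NEURL1B among the ligand uptake genes, LFNG among the glycosyltransferases, NUMBL and DTX3 among the endocytic regulators, and CNTN1 among the non-canonical ligands, beside NOTCH1 and NOTCH3. Of all protein-coding genes, 7.08% had such a region. DTX3, an E3 ligase of the Deltex family, scored 17.6 and 6.54 with DMSO and 36.7 and 52.7 with I-BET151. NOTCH2 had no TSS region in any list and scored 4.98 and 0 with DMSO and 44.6 and 29.5 with I-BET151, from 4 regions of which 2 were gained. DLK1, the paralogue of DLK2, had no TSS region in any list and scored 0.445 and 0 with DMSO and 1.01 and 11.9 with I-BET151.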
